A study of Xenopus tropicalis with 6 samples.

Results

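The genes described here are the 56 gene models whose level was at least 1.5 times higher in the Tet2/Tet3 Morpholino library than in the control Morpholino library of the same replicate number, in each of 3 pairs. They were chosen from 28165 identifiers by measured values. A level is given as CPM, the count of a gene divided by the total of its library and scaled to 1000000. A raised gene needed an average of 5 CPM or more over all 6 libraries and a place outside the 100 identifiers with the highest mean control level, and 0.1 CPM was added to both levels before the ratio was taken. These 56 were 0.589% of the 9514 identifiers that met the conditions on level.

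The libraries hold poly(A) RNA of Xenopus tropicalis embryos at blastula stage 9, pooled from 50 embryos per library. The tested embryos received 30 ng of a Tet2 Morpholino with 30 ng of a Tet3 Morpholino at the one-cell stage (3 libraries), and the control embryos 60 ng of a standard control Morpholino (3 libraries). All 6 libraries therefore come from embryos injected with 60 ng of Morpholino in 5 nl, and no uninjected embryos were analysed here. Both Tet Morpholinos cover a start codon, so they act on translation, and mRNA levels do not measure the depth of the knockdown. The labels call the libraries biological triplicates and do not say what libraries of the same replicate number share.

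TET enzymes oxidise 5-methylcytosine, the methylated base of vertebrate DNA, which is a step towards removal of the methyl group. Morpholinos are modified antisense oligonucleotides that block an mRNA without cutting it. In the frog blastula, mRNA laid down in the egg is still present while the embryo starts to transcribe its own genome, so a level at this stage can mix maternal and newly made transcripts. In whole embryos, fewer cells of a type and less RNA per cell cannot be told apart.

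The identifiers come without gene names, and a look-up of all 28165 in a RefSeq table for UCB_Xtro_10.0 returned 0 matches. Names, functions, positions and sequences of the raised genes are therefore not given, and the stage was not checked against marker genes. Only the 2 raised genes picked by a rule on level and ratio are given by identifier, and the others are described by their values. Libraries held 37973110 to 41876179 counts in the Tet2/Tet3 group and 39044871 to 44792849 in the control group. The raised genes had at least 154 counts in each Tet2/Tet3 library and at least 98 in each control library, and all 56 passed the filter on low counts.

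Xetro.D01014 had the highest mean level of the raised genes over all 6 libraries, although another raised gene had the highest mean in control embryos, at 775 CPM. Its level was 1217, 1464 and 1441 CPM in Tet2/Tet3 replicates 1, 2 and 3, against 663, 845 and 787 CPM in control replicates 1, 2 and 3. All Tet2/Tet3 libraries lay above all controls, and replicate 1 was the lowest library of both groups. The means were 1374 ± 136 CPM in Tet2/Tet3 embryos and 765 ± 93 CPM in control embryos (SD, n = 3 each), and the ratio was 1.84, 1.73 and 1.83 in pairs 1, 2 and 3. The fitted log2 fold change of Xetro.D01014 was 0.97 (SE 0.13, adjusted p = 0.011, edgeR quasi-likelihood test with group alone). In that fit, which ignores the pairs, leaving out control replicate 3 or Tet2/Tet3 replicate 3 ended its call, with adjusted p of 0.071 and 0.070. With the replicate number added to the fit of all 6 libraries, its adjusted p was 1.22e-05 (edgeR).

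Xetro.C00386 had the highest lowest pair ratio of the 56. Its level was 135, 141 and 140 CPM in Tet2/Tet3 replicates 1, 2 and 3, against 61.1, 59.9 and 54.1 CPM in the controls. The groups lay far apart, with means of 139 ± 3.6 CPM in Tet2/Tet3 embryos and 58.4 ± 3.7 CPM in control embryos (SD, n = 3 each). Its ratio was 2.20, 2.36 and 2.59 in pairs 1, 2 and 3. The fitted log2 fold change of Xetro.C00386 was 1.38 (SE 0.087, adjusted p = 0.0012, edgeR with group alone), the lowest adjusted p of the 56. For both named genes the rule had already used this contrast, so these p-values describe the fits and support nothing further.

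**Figure D1:**
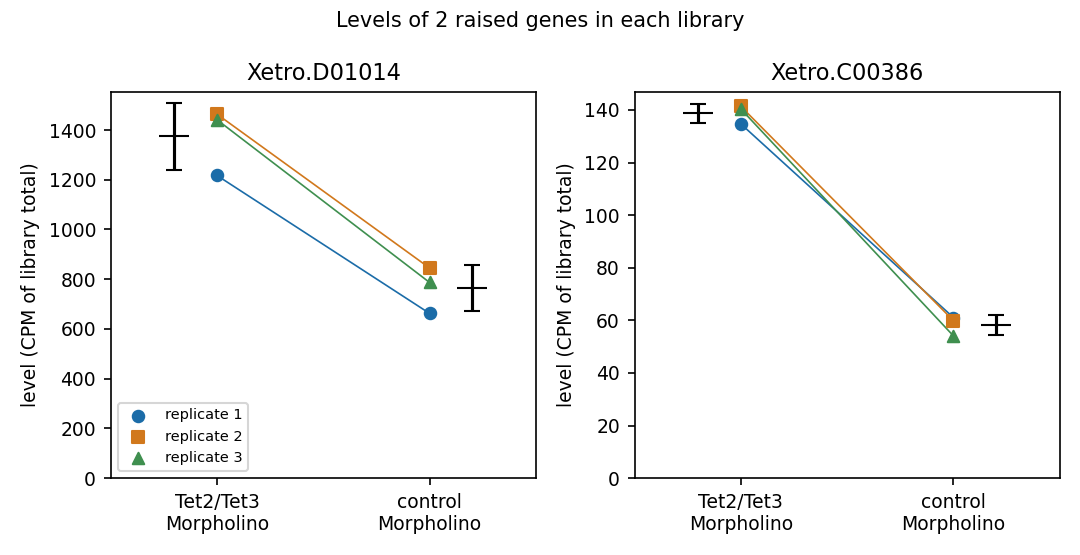
Level (CPM of the library total, axes from 0) of Xetro.D01014 and Xetro.C00386 in each library, Tet2/Tet3 Morpholino left and control Morpholino right. Lines join libraries of the same replicate number, and bars beside the points give mean and SD (n = 3); each line is higher at its Tet2/Tet3 end, and for Xetro.D01014 replicate 1 is lowest in both groups.

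Most of the raised genes lay close to the threshold. The lowest of the 3 pair ratios had a median of 1.58 over the 56 genes, was under 1.6 in 30 of them and reached 2.20 at most. In all 3 pairs, 26 genes had a ratio of at least 1.6, 6 of at least 1.8 and 3 of at least 2. The gene just inside the ratio threshold had 2.12, 1.503 and 1.70 in pairs 1, 2 and 3, and the gene just outside it 1.61, 1.498 and 1.58. A further 49 genes had a lowest pair ratio between 1.4 and 1.5. By level, the scarcest raised gene had a mean of 5.01 CPM over all 6 libraries, and the nearest gene under the floor that met the ratio had 4.22 CPM. Under 5 CPM, 19 genes met the ratio in every pair, 8 of them at 1 CPM or more.

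The rule holds every pair ratio at 1.5 or above, so the medians below follow from the choice of genes. The median ratio of the raised genes was 1.68, 1.68 and 1.75 in pairs 1, 2 and 3, where the 9514 genes of at least 5 CPM had medians of 0.953, 0.910 and 0.914. In 43 of the 56 the highest pair ratio was within 1.2 times the lowest, and the median of that quotient was 1.13, against 1.15 over the 9514 genes. The lowest ratio was in pair 1 for 26 genes, in pair 2 for 22 and in pair 3 for 8, and the highest was in pair 3 for 30. Over the 9514 genes the lowest ratio was in pairs 1, 2 and 3 for 26.4%, 41.0% and 32.6%. The highest ratio of the 9514 was in pair 3 for 24.5% and in pair 1 for 50.4%. These shares are not like for like. In a raised gene the lowest ratio is the smallest change, but in a gene under 1 in all pairs it is the largest. Of the genes that were not raised, 50.4% were lower in all 3 pairs.

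The widest disagreement between pairs was in a scarce gene with 13.5, 17.1 and 17.3 CPM in Tet2/Tet3 replicates 1, 2 and 3, against 7.41, 2.72 and 3.10 CPM in the controls. Its ratios were 1.81, 6.08 and 5.45 in pairs 1, 2 and 3, the only ratios of 3 or more among the raised genes. The Tet2/Tet3 libraries lay close together, and control replicate 1 stood apart at more than 2 times the level of the other controls.

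**Figure D2:**
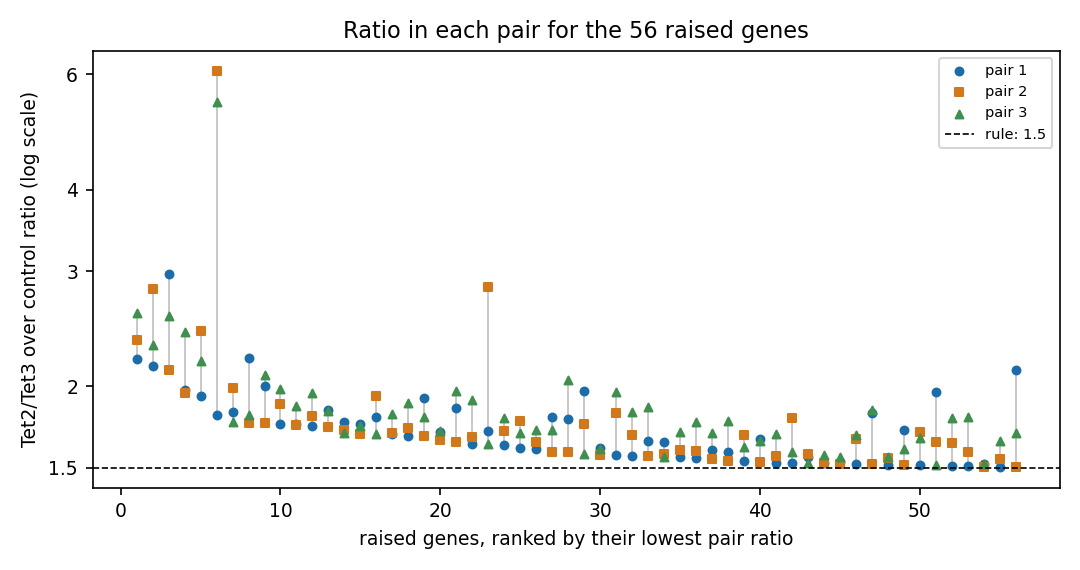
Ratio of Tet2/Tet3 to control level (log scale) in pairs 1, 2 and 3 for the 56 raised genes, ordered by their lowest pair ratio; grey lines join the lowest and highest ratio of a gene, and the dashed line is the threshold of 1.5. Most genes lie between 1.5 and 2 in all pairs, and 1 gene reaches 6.08 and 5.45 in pairs 2 and 3.

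The raised genes covered a wide range of abundance. Their mean level had a median of 110 CPM in Tet2/Tet3 embryos (lowest 6.18, highest 1374) and 61.7 CPM in control embryos (lowest 3.84, highest 775). The medians over all 9514 genes were 47.5 CPM in Tet2/Tet3 and 54.4 CPM in control embryos. Over all 6 libraries, 24 of the 56 (42.9%) averaged 100 CPM or more, against 29.4% of the 9514 genes. That mean includes the Tet2/Tet3 libraries, which the rule required to be high, so the difference follows in part from the choice of genes. By control mean alone, 20 of the 56 reached 100 CPM. The share of the 9514 genes by that measure is not given, so this count is not set beside other genes. The floor of 5 CPM was met through the Tet2/Tet3 libraries alone in 2 genes, whose control mean was under 5 CPM.

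Scarce and abundant raised genes had similar median ratios. The rule holds every pair ratio at 1.5 or above, so similar medians follow in part from the choice of genes. The level classes used the control mean, which also divides the ratio. A low control reading therefore moves a gene towards the scarce class and raises its ratio. The highest ratio of group means, 3.56, belonged to the gene with the widest disagreement between pairs. Its control mean was 4.41 CPM, so it met the floor only through the Tet2/Tet3 libraries. The next highest ratio under 25 CPM was 2.40, below the highest of the genes of 25 to 100 CPM. No fall of the highest ratio with level is therefore read from the ranges below. The ratio of group means had a median of 1.71 over the 56 genes. In the 16 genes with a control mean under 25 CPM it was 1.72 (range 1.55 to 3.56). It was 1.76 in the 20 genes of 25 to 100 CPM (1.54 to 2.52) and 1.63 in the 20 genes of at least 100 CPM (1.52 to 1.82). The 2-fold ratios in all 3 pairs belonged to genes with mean levels of 139, 159 and 26.8 CPM in Tet2/Tet3 embryos and 58.4, 63.3 and 11.1 CPM in control embryos.

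Together the 56 genes took 0.997%, 1.10% and 1.12% of all counts in Tet2/Tet3 replicates 1, 2 and 3, against 0.602%, 0.653% and 0.634% in control replicates 1, 2 and 3. The group means were 1.07 ± 0.066% in Tet2/Tet3 and 0.629 ± 0.026% in control libraries (SD, n = 3 each). Without Xetro.D01014 they were 0.935 ± 0.053% in Tet2/Tet3 and 0.553 ± 0.017% in control libraries. These shares follow from the choice of genes and were not tested. The same rule turned round found 656 genes that were lower in every pair by at least 1.5-fold, 6.90% of the 9514. Both counts depend on the scaling, and with TMM factors the rule found 121 raised and 477 lowered genes. In the edgeR fit with TMM factors, 794 genes were called higher and 724 lower at any size of change. The 656 took 2.05 ± 0.36% of the counts in Tet2/Tet3 and 4.43 ± 0.37% in control libraries (n = 3 each).

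The condition on the 100 highest identifiers removed 1 gene that met the ratio. It had 3626, 3629 and 3772 CPM in Tet2/Tet3 replicates 1, 2 and 3, against 2117, 2174 and 2124 CPM in the controls, with ratios of 1.71, 1.67 and 1.78.

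In the fit over all tested genes, 45 of the 56 were called higher in Tet2/Tet3 embryos with a Benjamini-Hochberg adjusted p below 0.05 (edgeR quasi-likelihood test, group alone, TMM factors), where 6.01% of 13221 tested genes were called higher. TMM factors scale libraries by the bulk of the genes. The rule used the same contrast, so nothing is read from this count. The fitted log2 fold changes of the 56 had a median of 0.90 (range 0.73 to 1.98), against -0.01 over all tested genes, and a median SE of 0.13. With the replicate number as a block all 56 were called, where 23.4% of tested genes were called higher, and the median SE was 0.066.

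Without the block the count rested on single libraries. It was 28 without control replicate 2, 11 without control replicate 3 and 14 without Tet2/Tet3 replicate 3, and it was 48 without Tet2/Tet3 replicate 1. The calls over the whole table moved as well. Without Tet2/Tet3 replicate 1, 1328 genes (9.9%) were called higher, and without control replicate 2, 73 genes (0.542%). Without control replicate 3, 20 genes (0.148%) were called higher and 11 of them were raised genes. Without Tet2/Tet3 replicate 3, 25 genes (0.185%) were called and 14 of them were raised genes. With the block, leaving out pair 1, 2 or 3 left all 56 called, where 25.2%, 18.1% and 16.4% of the tested genes were called higher. The rule used the same libraries and contrast, so the part of the called genes that were raised genes follows largely from the choice of genes.

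**Figure D3:**
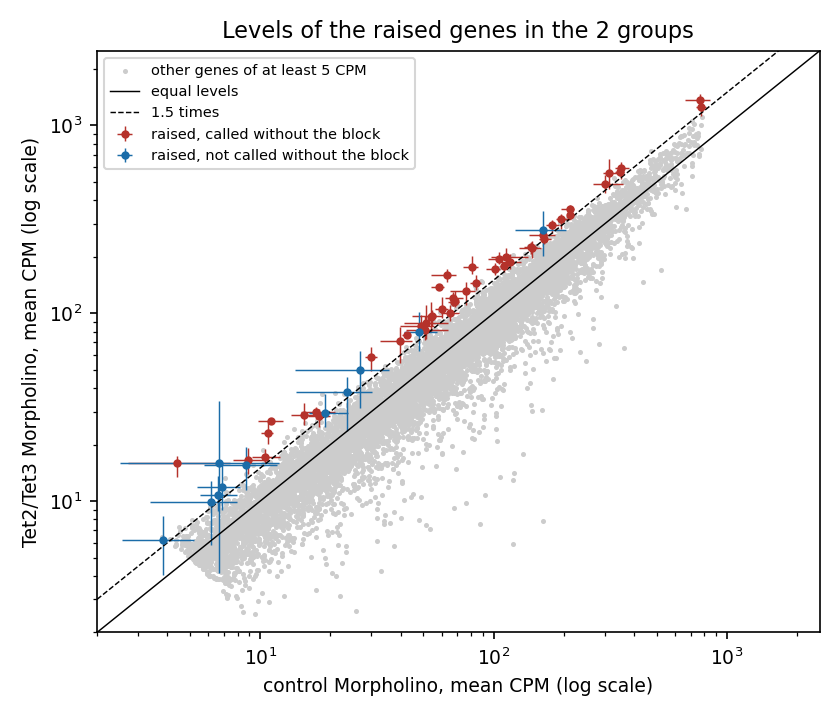
Mean level in Tet2/Tet3 Morpholino (vertical) and control Morpholino libraries (horizontal), in CPM on log axes, for the 56 raised genes and, in grey, the other 9458 genes of at least 5 CPM (4 lie outside the axes). Bars run from the lowest to the highest library of a group, the solid line marks equal levels and the dashed line 1.5 times. Red genes (45) were called without the replicate block and blue genes (11) were not. Most blue genes have longer bars than most red ones.

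The rule used the same levels, so the counts of genes with separate groups follow largely from the choice of genes. All 3 Tet2/Tet3 libraries lay above all 3 controls in 49 of the 56 genes, where 12.7% of the 9514 genes did so. In 12 genes even the lowest Tet2/Tet3 library was at least 1.5 times the highest control. A gene of the 9514 that does so also meets the rule, so these 12 cannot be set beside other genes. In the other 7 of the 56 the groups overlapped although each pair differed by at least 1.5-fold. None of those 7 was called without the block.

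The strongest overlap was in a scarce gene with 9.36, 34.2 and 4.16 CPM in Tet2/Tet3 replicates 1, 2 and 3, against 5.44, 12.0 and 2.51 CPM in the controls. Replicate 2 was the highest and replicate 3 the lowest library in both groups, and the lowest Tet2/Tet3 library stood at 0.347 times the highest control. An abundant gene overlapped too, with 202, 350 and 284 CPM in Tet2/Tet3 replicates 1, 2 and 3, against 124, 205 and 159 CPM in the controls. There, Tet2/Tet3 replicate 1 lay just under control replicate 2. A gene with 46.1, 23.7 and 44.5 CPM in Tet2/Tet3 and 30.3, 14.2 and 26.3 CPM in control replicates 1, 2 and 3 had the opposite order, with replicate 2 the lowest in both groups.

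The rule compared libraries only within a replicate number, so it did not compare the replicate numbers directly. It did set a minimum for every pair ratio, which bears on how far the pairs can disagree. Disagreement between pairs is the error of the test on the replicate terms. The raised genes were also not matched to the other genes for level. The share of raised genes called below is therefore not independent of the choice of genes. In the fit with group and replicate number, 37 of the 56 raised genes (66.1%) differed between replicate numbers by edgeR's quasi-likelihood test on the replicate terms (adjusted p below 0.05). Over the 9512 tested genes of at least 5 CPM outside the 100 highest, 50.9% did, and over all 13221 tested genes 46.3%. Leaving out 1 library at a time gave 27 to 42 raised genes (48.2% to 75%), where the same fits called 39.7% to 58.5% of the genes of at least 5 CPM. All 11 raised genes that were not called between the groups without the block were among the 37, and the other 26 were called between the groups as well. The 19 that did not differ between replicate numbers were all called between the groups. The rule sets a minimum for every pair ratio, and spread between replicate numbers enters the error of the fit without the block. That spread is also what the replicate terms test, so this overlap follows largely from the choice of genes and the fits. Nothing further is read from it. The 11 uncalled genes had a median level of 12.2 CPM over all 6 libraries, against 104 CPM in the 45 called ones, and a median log2 fold change of 0.85, against 0.91.

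More raised genes were called higher than lower in replicate 2 relative to replicate 1. They were called higher in replicate 2 in 25 of 56 cases (44.6%) and lower in 8 (14.3%), where 24.9% and 25.6% of the 9512 genes were called higher and lower (edgeR, adjusted p under 0.05). The median log2 difference of replicate 2 minus 1 was 0.19 in the raised genes and -0.002 in the 9512. Xetro.D01014 was among the 25, with a log2 difference of 0.36 (adjusted p = 0.0032, edgeR), and Xetro.C00386 was not called, with 0.07 (adjusted p = 0.49). In replicate 3 relative to replicate 1, 15 raised genes (26.8%) were called higher and 8 (14.3%) lower, against 16.5% and 18.4% of the 9512. Between replicates 3 and 2 fewer were called. There, 3 raised genes (5.36%) were higher and 7 (12.5%) lower in replicate 3, against 4.87% and 5.38% of the 9512. Whether the share of the raised genes differs from that of the other genes was not tested.

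The direction was the same in both groups for most raised genes, as it was for most of the 9514 genes. On plain CPM, 31 of the 56 (55.4%) were higher in replicate 2 than in replicate 1 in both the Tet2/Tet3 and the control group and 17 (30.4%) were lower in both, against 36.8% and 47.2% of the 9514 genes. Across the 56 genes, the log2 difference of replicate 2 minus 1 in the Tet2/Tet3 group correlated with that in the control group at r = 0.78. The genes share the same 4 libraries and the value carries no p. Over the 9514 genes r was 0.92. The replicate number with the highest level was the same in both groups in 41 of the 56 genes (73.2%), against 72.3% of the 9514. The number with the lowest level was the same in 46 (82.1%), against 71.7%. It was replicate 1 in 26, or 46.4%, where replicate 1 was lowest in both groups for 28.4% of the 9514.

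**Figure D4:**
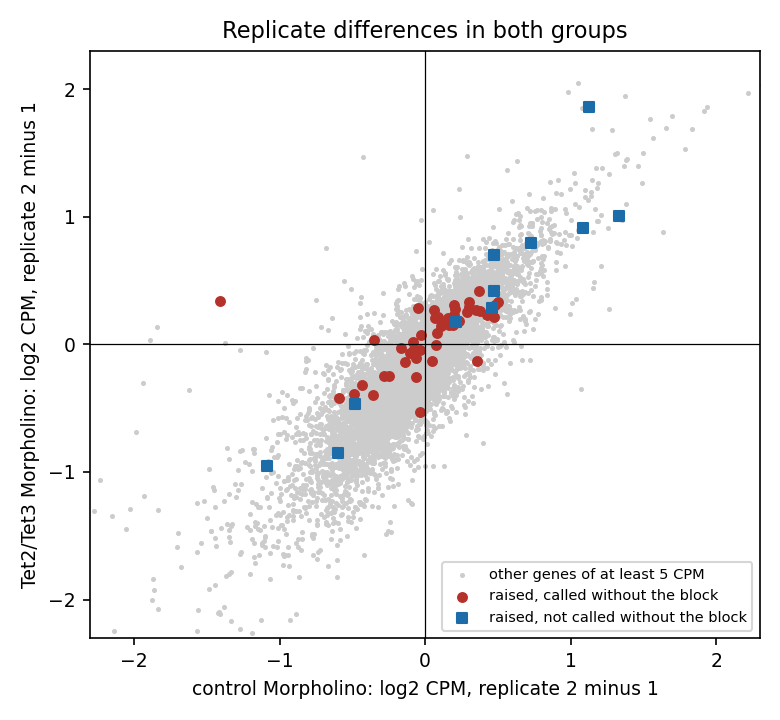
Difference in log2 CPM (0.1 CPM added) between replicates 2 and 1 in the Tet2/Tet3 group (vertical) and the control group (horizontal) for the 56 raised genes, red where called between the groups without the block and blue squares where not, over the other 9458 genes of at least 5 CPM in grey (109 lie outside the axes). Most raised genes lie in the upper right, with 31 higher in replicate 2 in both groups, and the blue squares lie mostly far from the centre.

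The same order appeared in genes next to the threshold and turned round in the lowered genes. Of the 598 genes with a lowest pair ratio from 1.2 to 1.5, 36.0% were called higher in replicate 2 than in replicate 1 and 9.20% lower. Of the 656 genes lowered in every pair, 7.01% were called higher and 51.2% lower. The remaining 8202 genes lay between them, at 25.4% and 24.8%.

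Abundance moved with this measure too. Of the 24 raised genes that averaged 100 CPM or more, 13 (54.2%) were called higher in replicate 2 and 2 (8.33%) lower, against 36.8% and 16.0% of all genes at that level. Of the 32 raised genes of 5 to 100 CPM, 12 (37.5%) were called higher and 6 (18.8%) lower, against 20.0% and 29.6%. Leaving out 1 library at a time gave 17 to 30 raised genes higher in replicate 2 (30.4% to 53.6%) and 7 to 9 lower. Over the 9512 genes the same fits called 15.1% to 26.9% higher and 16.4% to 28.6% lower. The part of the replicate numbers in the difference between Morpholino groups was not tested.

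**Figure D5:**
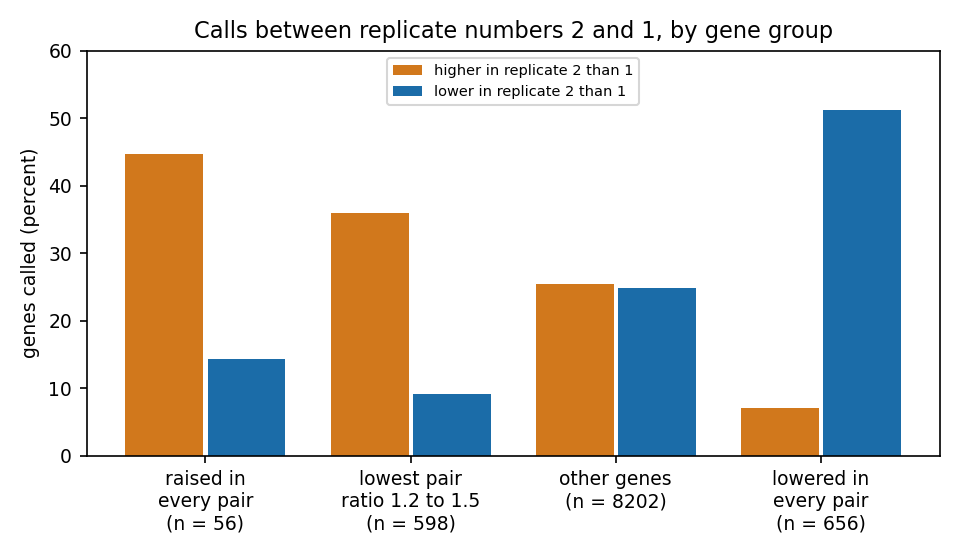
Percent of genes called higher (orange) or lower (blue) in replicate 2 than in replicate 1 (edgeR with group and replicate number, adjusted p under 0.05) in genes raised in every pair, genes with a lowest pair ratio of 1.2 to 1.5, other genes and genes lowered in every pair. Calls of higher make up 44.6% of the raised and 7.01% of the lowered genes, and calls of lower 14.3% of the raised and 51.2% of the lowered genes.

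Variation within a group was also set beside that of other genes. The highest library was a median of 1.24 times the lowest in the Tet2/Tet3 group and 1.26 times in the control group, against 1.26 in Tet2/Tet3 and 1.202 in control libraries over the 9514 genes. A range of 1.5-fold or more occurred in 12 raised genes (21.4%) within the Tet2/Tet3 group and in 11 (19.6%) within the control group, against 23.2% and 13.3% of the 9514.

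The identifiers consist of a letter from A to K and a number, whose meaning is not given in the sources used here. The raised genes were spread over all 11 letters, with 3 to 8 genes each. They were 0.212% of the genes of at least 5 CPM under letter A (3 of 1416) and 1.33% of those under letter J (5 of 375). Consecutive numbers occurred in 1 pair of raised genes. Another 46 genes of at least 5 CPM were numbered next to a raised gene without being one. Of these, 12 (26.1%) were higher and 25 (54.3%) lower in the Tet2/Tet3 library of all 3 pairs, against 26.9% and 50.4% of all 9458 genes that were not raised. Their median log2 ratio was -0.14, against -0.11.

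The number of raised genes depended on the scaling. On plain CPM the typical gene lay under a ratio of 1, as the medians above show, and the 100 highest control identifiers took 15.3 ± 0.49% of counts in Tet2/Tet3 and 13.0 ± 0.070% in control libraries (SD, n = 3 each). All 56 were among the 121 genes that met the rule with TMM factors, where the median ratios of the genes tested for it were 1.01 in each pair. The TMM factors were 1.034 to 1.050 in control and 0.934 to 0.988 in Tet2/Tet3 libraries, which raises the ratio in every pair. No raised gene could therefore drop out by its ratio, and nothing is read from that overlap. RLE factors gave 124 genes. A lower minimum, 125% of the control level in every pair, gave 434 genes and a ratio of 2 gave 3. When pair 1 was left out, 100 genes met the ratio in the other pairs.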

How the data were processed

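RNA-seq of 6 libraries was analysed. The authors deposited whole-number counts per gene model, 1 file per library. Per the submitters' processing notes, the tools were STAR 2.5.4b, featureCounts 1.5.1 with Subread, SAMtools 1.3.1, FastQC and bcl2fastq, without their roles. Genome build, annotation, strand setting and multimapper handling were not given in the sources used here, so overlapping, antisense and near-identical genes may share or lose reads.

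Groups and pairs came from the sample titles. Tests ran on the whole table with edgeR 4.0.16 (R 4.3.3): filterByExpr (minimum count 10), TMM factors, glmQLFit and glmQLFTest, with Benjamini-Hochberg adjustment over 13221 genes. Standard errors were derived from the F statistic. The procedure was tested on simulated counts with the common variation of the fit with group and replicate number (biological coefficient of variation 0.071). The fit with group alone had 0.276, so the simulation does not show how that fit performs at its own spread. Libraries of the same number deviated together from their group means (r = 0.90, 0.92 and 0.80 across genes for replicates 1, 2 and 3), so the numbers were taken as pairs. P-values of the fit with group alone measure the spread between libraries of a group. In fits with the replicate number, they measure the spread left once replicate differences are taken out.

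The 2 named genes are the raised gene with the highest mean CPM over all libraries and the one with the largest lowest pair ratio. Members and tests were chosen with earlier results of these data known. The comparison of replicate 2 with 1 by ratio band and level, and its alternatives, were added after seeing the data. DESeq2 1.42.0 was an alternative.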

Additional observations from a re-analysis of the deposited data

How the results depend on the processing

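The count of genes under the rule moved by more than 1.5 times in 6 settings. These included a minimum of 125% of control (434 genes), a ratio of 2 (3), TMM factors (121), RLE factors (124) and leaving out replicate 1 (100). The last required every Tet2/Tet3 library to be 1.5 times every control (12). Leaving out replicate 2 gave 73 and leaving out replicate 3 gave 66. A floor of 1 or 10 CPM, a floor on the control mean, a pseudocount of 1 CPM and no exclusion gave 48 to 64. Of the 56 raised genes, RLE or upper-quartile factors, no filter and a filter of 1 CPM each left 45 called higher. DESeq2 gave 52 and the replicate block 56. The rule used this contrast, so nothing is read from these counts. Over all tested genes, 6.01% were called higher in the main fit and 23.4% with the block. Shares under the other factors, filters and DESeq2 are not given. Leaving out 1 library gave 11 to 48 raised genes without the block, where 0.148% to 9.9% of tested genes were called higher. Leaving out a pair gave 56 with the block, where 16.4% to 25.2% of tested genes were called higher. Xetro.D01014 kept its direction in all 12 alternatives, with log2 fold changes of 0.88 to 1.08 without 1 library. Its adjusted p was 0.0059 to 0.071 over those 6 fits. Xetro.C00386 stayed called in all 12, at 1.32 to 1.42 without 1 library. With the replicate block both stayed called, at adjusted p of 1.22e-05 for Xetro.D01014 and 6.45e-06 for Xetro.C00386. Differences between replicate numbers were called in 36 to 39 raised genes under other factors, filters and DESeq2. The share of all genes under those settings is not given, and in the main fit it was 50.9% of the genes of at least 5 CPM. Without 1 library 27 to 42 raised genes were called, against 39.7% to 58.5% of the genes of at least 5 CPM. With RLE factors 25 raised genes were higher and 7 lower in replicate 2 than in replicate 1. The same fit called 25.3% of the genes of at least 5 CPM higher and 25.2% lower. The causes were not tested. The fewest counts of a raised gene in a library were 98, and the raised genes not called without the block had a median level of 12.2 CPM, against 104 CPM in the called ones.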
